A study of Homo sapiens with 15 samples.

Results

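PC3 is a human line grown from a bone metastasis of prostate cancer, and the comparison described here is between PC3 cells given a mimic of the microRNA miR-224 and PC3 cells given a scrambled mimic. It uses 4 of the series' 15 arrays, the 2 arrays labelled miR-224 (a and b) and the 2 labelled with the scrambled control (b and c). The 2 untransfected PC3 arrays (b and c) served as a check on each result, and all 8 PC3 arrays, including 2 with a miR-452 mimic, entered the fit so that the groups shared 1 estimate of the spread. Cells of every group grew in RPMI medium with fetal calf serum, and those given a mimic were reverse transfected with 20 nM of it in a lipid reagent, with fresh medium after some hours. Untransfected cells received no mimic. RNA was taken at 48 h and hybridised to Affymetrix Human Gene 1.0 ST arrays, whose probes lie along the whole transcript. A mimic is a synthetic duplex that delivers 1 microRNA at far more than its natural amount, so these are the RNA levels of 1 line under overexpression. The array measures the average over all cells of a dish, so a change in the share of cells that make an RNA and a change in RNA per cell cannot be told apart. The labels do not say whether the 2 arrays of a group came from separate cultures, so p-values measure the spread between these arrays, which may be technical.

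MicroRNAs are short RNAs that guide Argonaute proteins to messenger RNAs. Pairing is led by the seed, bases 2 to 8 of the mature strand, and usually lowers the RNA level or translation of the bound transcript. Genes that rise, and many that fall, therefore need not be bound themselves. The genes for miR-224 and miR-452 lie on the minus strand inside the gene GABRE on the X chromosome, at chrX:151953124-151974676 (GRCh38.p14). The mature strands are shown, from RefSeq, because the mimics are named for these hairpins; capitals mark the seed.
hsa-miR-224-5p: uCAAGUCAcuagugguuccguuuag
hsa-miR-224-3p: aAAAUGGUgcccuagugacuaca
hsa-miR-452-5p: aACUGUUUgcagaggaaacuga
hsa-miR-452-3p: cUCAUCUGcaaagaaguaagug
The miR-224-5p strand lies at chrX:151958628-151958652 and the miR-452-5p strand at chrX:151959678-151959699. No other mature name in the RefSeq table carried the seed of miR-224-5p, and its full seed match in a transcript reads UGACUUG. The seeds of miR-224-5p and miR-452-5p differ, and the labels do not say which strand of each hairpin the mimic supplied.

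Values are log2 levels as deposited, on which 1 unit is a 2-fold difference, and a gene is called when its adjusted p, from limma over 18377 genes, lies under 0.05. Against the scrambled arrays, 2225 genes were called higher with miR-224 (12.1% of those tested) and 855 lower (4.65%), and the median change over all genes was -0.01. Against the untransfected arrays the balance was the other way, with 521 higher (2.84%) and 1259 lower (6.85%). The 2 controls themselves differed: the scrambled arrays stood higher than untransfected in 611 genes (3.32%) and lower in 2007 (10.9%). Without the array miR-224 b the genes higher than scrambled numbered 831 and those lower 332, and without scrambled c the higher genes numbered 1125. The 2 scrambled arrays correlated least of the PC3 pairs (0.9922 across features) and the miR-224 pair most (0.9968). Among 336 olfactory receptors, a family mostly silent outside the nose, the mean level was 5.77 and 6.13 in scrambled b and c, 5.86 and 5.89 in the miR-224 arrays, 5.72 and 5.73 in the untransfected arrays, and 6.04 and 6.17 in the miR-452 arrays. Scrambled c thus lay away from its partner and level with the miR-452 arrays. The 8 markers of cultured prostate cancer epithelium averaged 10.45 to 10.89 in every PC3 array, while 5 lists of markers for luminal, neuroendocrine, stromal, leukocyte and endothelial cells averaged 6.26 to 7.61. The counts for gene lists below are therefore given against both controls. Those 2 comparisons share the miR-224 arrays, so their counts are set side by side and not read as independent. Each list count is to be read beside the shares over all genes. Against scrambled these were 12.1% higher and 4.65% lower, and against untransfected 2.84% and 6.85%.

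Of all genes tested, 510 were called lower than scrambled and lower than untransfected with both miR-224 arrays below all 4 controls (2.78%). The 20 described here have the largest changes by the smaller of those against the 2 controls, and 5 of them are histone genes, taken up below. PRDX3, the mitochondrial peroxiredoxin that removes hydrogen peroxide, read 10.64 and 10.42 untransfected, 10.40 and 10.39 scrambled, and 9.21 and 9.27 with miR-224. Both miR-224 arrays lay more than 1 unit under every control, and it fell by 1.15 ± 0.09 (SE) against scrambled (adjusted p = 3.4e-05), with a change of -1.29 against untransfected. TMEM14C, an inner membrane protein needed for haem synthesis, fell by 1.15 ± 0.08 (adjusted p = 3.1e-05), and its close relative TMEM14B fell by 1.10; probes of such similar genes may pick up each other's RNA. The complex I subunit NDUFA8 fell by 0.97, and ACAT1, the mitochondrial thiolase of ketone body and isoleucine breakdown, by 0.97.

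CLTB, a clathrin light chain, read 10.46 and 10.67 untransfected, 10.58 and 10.44 scrambled, and 9.44 and 9.38 with miR-224. The miR-224 arrays lay below all the controls, as the choice of this set required, and CLTB fell by 1.10 ± 0.09 (adjusted p = 4.6e-05). Other genes of membrane traffic and surface in this set were TRAPPC4, a subunit of the TRAPP tethering complexes (-0.95), ATP1B3, a beta subunit of the sodium pump (-1.11), UBE2J1, a ubiquitin-conjugating enzyme of the endoplasmic reticulum (-0.99), and DSG2, the desmosomal cadherin desmoglein 2 (-0.94). CYRIB, which binds RAC1 and restrains actin branching, read 10.50, 10.48, 10.42 and 10.49 in the 4 controls and 9.49 and 9.40 with miR-224, so the controls were level and both miR-224 arrays 1 unit beneath them. ID1, an inhibitor of basic helix-loop-helix factors, fell by 1.31 ± 0.08 and CALB1, the calcium buffer calbindin, fell by 1.62 ± 0.08. C12orf57, a small protein linked to brain development, fell by 1.42 and DPYSL2, a microtubule-binding protein of growing axons, fell by 1.45. This set was chosen for large, called and separated changes in these same arrays. That choice favours calls that survive with 1 array left out, so the check adds little support. None of these genes lost its call against scrambled when any 1 of the 8 arrays was left out.

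**Figure D1:**
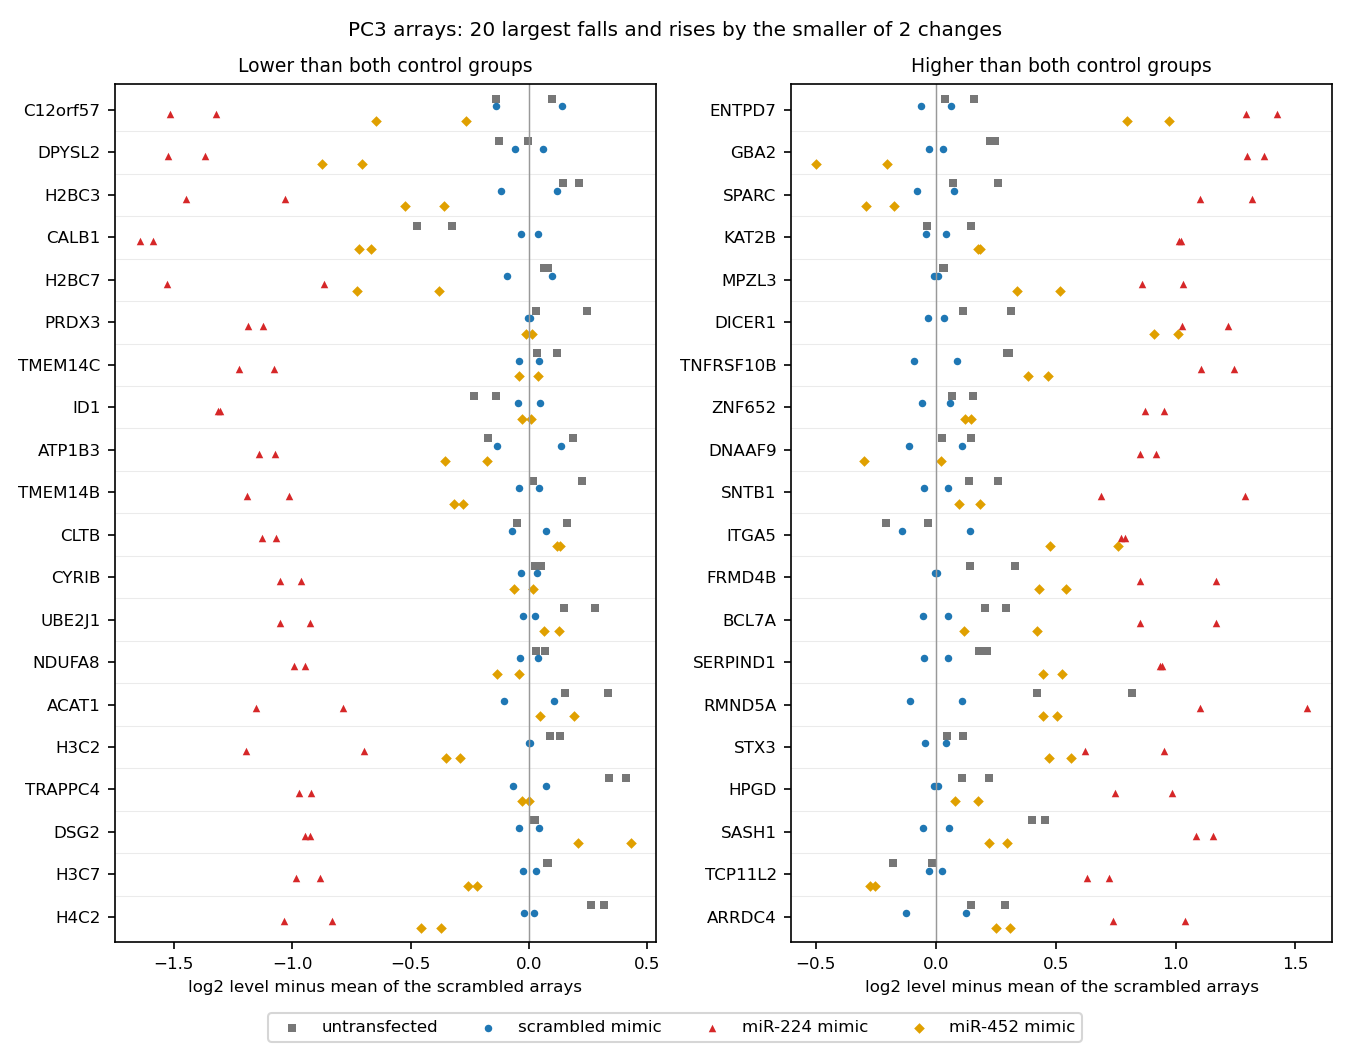
Log2 level of each PC3 array minus the mean of the scrambled arrays, for the 20 largest falls (left) and rises (right) with miR-224 by the smaller of the changes against both controls; each point is 1 array and the symbols mark the 4 groups. Genes were chosen so that both miR-224 points lie beyond all scrambled and untransfected points. They lie to the left in the left panel and to the right in the right panel.

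Genes above both controls were fewer, 401 called higher than scrambled and than untransfected with both miR-224 arrays above all 4 controls (2.18%). The 20 leading genes, by the same ranking, rose by 0.68 (TCP11L2) to 1.36 (ENTPD7) on the log2 scale. ENTPD7, an intracellular nucleotide-hydrolysing enzyme, read 8.31 and 8.19 untransfected, 8.22 and 8.09 scrambled, and 9.45 and 9.58 with miR-224, and also stood at 9.13 and 8.95 with miR-452. It rose with both mimics, by 1.36 ± 0.09 with miR-224 (adjusted p = 2.4e-05). GBA2, the non-lysosomal glucosylceramidase, rose by 1.33 ± 0.10, from 8.86 and 8.81 scrambled to 10.20 and 10.13. With miR-452 it lay at 8.63 and 8.33, on the other side of the controls. SPARC, a secreted matrix-binding glycoprotein, read 7.55 and 7.40 scrambled, 7.73 and 7.55 untransfected, and 8.80 and 8.58 with miR-224, a rise of 1.21 ± 0.10.

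DICER1, the enzyme that cuts microRNA hairpins, rose by 1.12 ± 0.10, from 9.17 and 9.10 scrambled to 10.16 and 10.35, and read 10.15 and 10.04 with miR-452. Both mimics thus gave a level above all 4 controls. KAT2B, a histone acetyltransferase, rose by 1.02 and BCL7A, a subunit of the SWI/SNF chromatin remodeller, by 1.01. TNFRSF10B, the death receptor for TRAIL, rose by 1.17 ± 0.09, from 9.24 and 9.06 to 10.26 and 10.40. Among surface and secreted proteins, ITGA5, the alpha subunit of the fibronectin receptor, rose by 0.78, SNTB1, a syntrophin of the dystrophin complex, by 0.99, and SERPIND1, heparin cofactor II, by 0.94. HPGD, which inactivates prostaglandins, rose by 0.87, SASH1, a signalling scaffold, by 1.12, ARRDC4, an alpha-arrestin, by 0.89, and the target-membrane SNARE STX3 by 0.79. The remaining genes among the 20, MPZL3, ZNF652, DNAAF9, FRMD4B, RMND5A and TCP11L2, rose by between 0.68 (TCP11L2) and 1.33 (RMND5A). As with the falls, the choice of this set favours calls that survive with 1 array left out, so that check adds little support. All 20 kept their call with any 1 array left out.

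For many genes the distance from scrambled was not a distance from untransfected cells. Of the genes called higher than scrambled, 1256 lay within 0.2 of the untransfected mean, and of those called lower, 187 did. The limit is arbitrary: SLC46A1 stood just inside it (0.1997) and BPTF just outside (0.2001). AXL, a receptor tyrosine kinase of the TAM family, was the largest of these. It read 11.71 and 11.77 untransfected, 10.32 and 10.16 scrambled, 11.75 and 11.88 with miR-224 and 11.57 and 11.55 with miR-452. The 2 scrambled arrays were the low ones and the other 6 overlapped or lay close. AXL was thus 1.57 ± 0.09 higher with miR-224 than scrambled (adjusted p = 7.4e-06) but only 0.07 higher than untransfected (adjusted p = 0.65). RNF157, a ubiquitin ligase, read 8.09 and 8.06 scrambled against 9.45 and 9.43 untransfected and 9.30 and 9.50 with miR-224. SFT2D2, a Golgi transport protein, read 8.69 and 8.38 scrambled, 9.89 and 9.83 untransfected, and 9.87 and 9.82 with miR-224. In both genes the scrambled arrays alone were low, and the changes against scrambled were 1.33 for RNF157 and 1.31 for SFT2D2.

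The same pattern held for SEC24C, a cargo-binding coat protein of COPII vesicles, with a difference of 1.09 from scrambled and 0.16 from untransfected. It held for GYG1, the glycogen primer glycogenin (0.95 and -0.03), for RDX, which ties membranes to actin (0.90 and 0.03), for GSKIP, a GSK3-binding protein (0.92 and 0.17), and for ACADSB, a mitochondrial acyl-CoA dehydrogenase (0.91 and 0.18). In the other direction, RGS4, which shortens G protein signals, read 6.94 and 6.998 untransfected, 8.002 and 8.01 scrambled, 7.11 and 7.13 with miR-224, and 8.06 and 7.96 with miR-452. The scrambled and miR-452 arrays were high together, and miR-224 and untransfected arrays low together. NUPR1, a stress-induced nuclear protein, differed by -0.67 from scrambled and -0.14 from untransfected, and the lysosomal cystine exporter CTNS by -0.62 and -0.18. GEM, ANKRD52, MAP7D2, DND1 and ANK3 made up the rest of the 8 named falls, with changes of -0.74 (GEM) to -0.65 (ANK3) against scrambled and of -0.19 (GEM) to -0.02 (DND1) against untransfected.

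**Figure D2:**
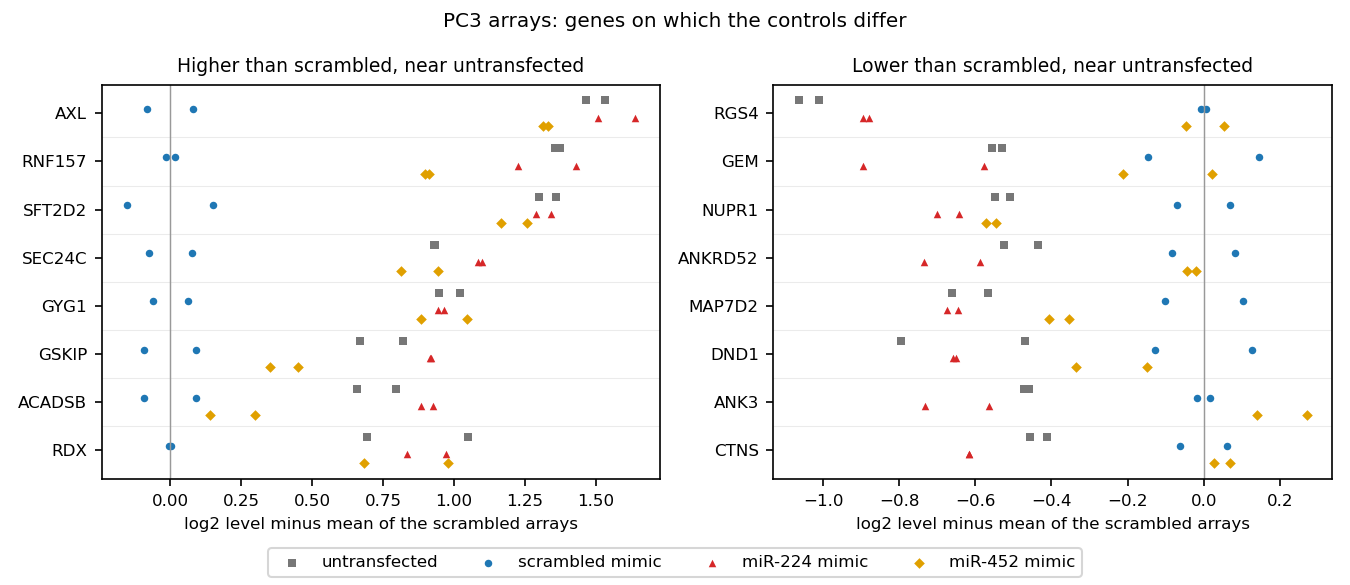
Log2 level of each PC3 array minus the mean of the scrambled arrays for the 8 largest called rises (left) and falls (right) that lie within 0.2 of untransfected; each point is 1 array. In the left panel the scrambled arrays stand alone at the left and the miR-224 points fall among or near the untransfected points; for AXL the miR-224 change is 1.57 against scrambled and 0.07 against untransfected.

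Replication-dependent histone genes, which are made in S phase and packaged with new DNA, were lower as a broad family. Of 54 measured, 31 were called lower than scrambled and 0 higher, with a median change of -0.38 against -0.01 over all genes. Against untransfected 31 were lower and 2 higher, the median was -0.46, and 29 were lower than both (510 of 18377 over all genes). In 38 of the 54 both miR-224 arrays lay below all 4 controls, as they did in 2167 of all 18377 genes. The count of 31 stayed within 1.5 times with each array left out. The fall reached every core class and the linker: 3 of 5 H1 genes, 10 of 14 H2A, 6 of 16 H2B, 6 of 8 H3 and 6 of 11 H4. Of the 26 histone genes with a mean level of at least 8, a limit chosen after the values were seen, 20 were lower, and of the 18 under level 7, 5 were.

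H2BC3 read 9.15 and 9.22 untransfected, 8.89 and 9.13 scrambled, and 7.97 and 7.56 with miR-224, and it fell by 1.24 ± 0.13 (adjusted p = 0.00018). H3C7 read 8.73 and 8.73, 8.68 and 8.63, then 7.77 and 7.67, and it fell by 0.93 ± 0.08. H4C2 fell by 0.93 ± 0.09, from 9.44 and 9.40 to 8.59 and 8.39. In these genes, of H2B, H3 and H4, both miR-224 arrays lay clear of all 4 controls, which their place among the leading falls required. H2BC7 fell by 1.20 and H3C2 by 0.95. The exceptions were also clear: H4C8 was 0.28 above scrambled, which was not called, and 0.66 above untransfected, which was, and H2BC12 was 0.14 and 0.36 above. Histone copies are nearly identical within a class, and probes that match several copies can share signal, so single members are less certain than the family. In miR-224 array b 41 of the 54 histone genes read lower than in array a. With miR-452, 5 of the 54 were called lower than scrambled and the median change was -0.14.

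**Figure D3:**
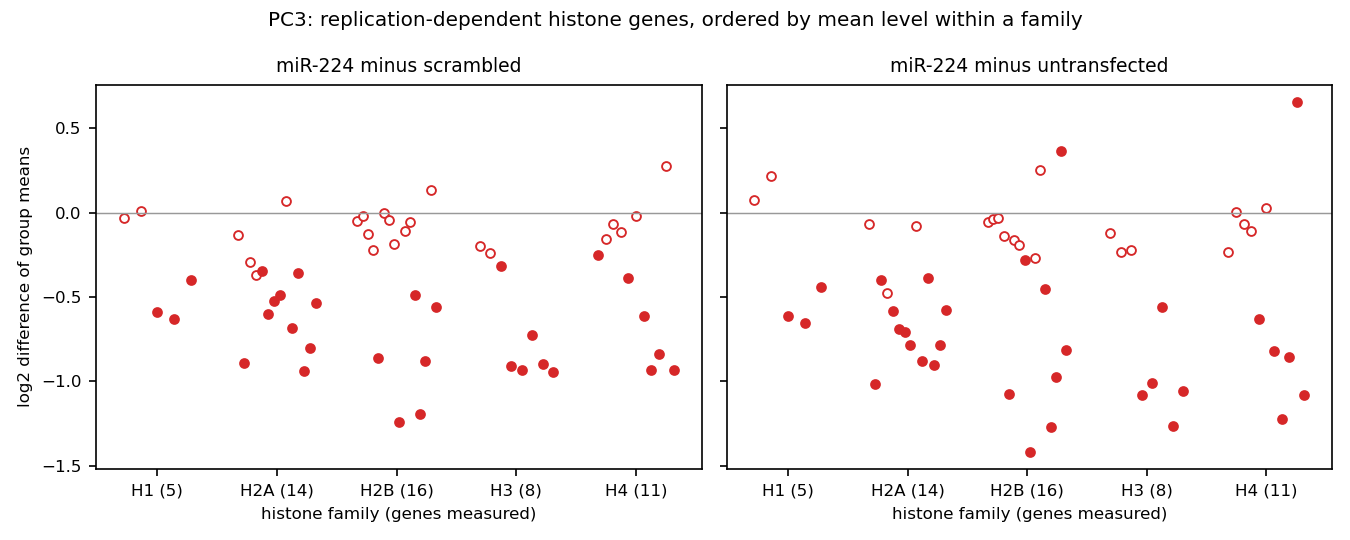
Log2 change with miR-224 of the 54 replication-dependent histone genes in PC3, by family and, within it, ordered by mean level, against the scrambled arrays (left) and the untransfected arrays (right); each point is 1 gene. Filled points are called genes and open points are not. In both panels most points lie below 0, with H2BC3 lowest at -1.24 and -1.42 and H4C8 highest at 0.28 and 0.66.

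The promoters of the histone genes that fell most are printed as background, since this class has known shared elements. A link between these elements and the fall was not tested. They are the 250 bases before the start site in the direction of transcription, from RefSeq (GRCh38.p14). Capitals mark the octamer ATTTGCAT, the CCAAT box CCAAT and the TATA box TATAAA, each on either strand.
H2BC3, chr6:26043714-26043963, minus strand: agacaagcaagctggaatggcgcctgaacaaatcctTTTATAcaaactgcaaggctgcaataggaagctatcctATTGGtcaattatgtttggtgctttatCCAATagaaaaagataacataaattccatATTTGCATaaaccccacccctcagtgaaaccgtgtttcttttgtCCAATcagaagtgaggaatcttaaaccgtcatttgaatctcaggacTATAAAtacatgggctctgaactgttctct
H2BC7, chr6:26199266-26199515, plus strand: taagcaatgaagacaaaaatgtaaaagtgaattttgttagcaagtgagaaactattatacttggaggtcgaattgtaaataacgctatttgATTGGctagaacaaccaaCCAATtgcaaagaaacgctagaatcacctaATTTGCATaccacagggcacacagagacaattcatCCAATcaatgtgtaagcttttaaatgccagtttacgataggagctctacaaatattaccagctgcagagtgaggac
H3C2, chr6:26032100-26032349, minus strand: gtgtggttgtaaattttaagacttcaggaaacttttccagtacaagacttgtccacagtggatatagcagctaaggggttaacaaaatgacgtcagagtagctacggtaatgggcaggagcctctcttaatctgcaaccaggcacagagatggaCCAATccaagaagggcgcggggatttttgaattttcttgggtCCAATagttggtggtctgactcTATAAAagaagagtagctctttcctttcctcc
A RefSeq window of 300 bases, 250 before and 50 after the start, was found for 49 of the 54 genes. The octamer was in 13 of 16 H2B and 10 of 13 H2A windows and in none of the H1, H3 and H4 windows, 46.9% of histone windows against 1.8% of all 27305. The CCAAT box was in 87.8% against 35.7%, and the TATA box in 69.4% against 12%. Shares were not compared between histone genes that fell and those that did not.

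Small noncoding RNAs of the nucleus were also lower in many members. Spliceosomal small nuclear RNAs, the catalytic and recognition RNAs of the spliceosome, were lower in 14 of 22 and higher in 0, with a median of -0.69 against scrambled and -0.48 against untransfected. Box H/ACA small nucleolar RNAs, which guide pseudouridylation, were lower in 24 of 61 and higher in 1, with a median of -0.37. RNAs of the Cajal body, where small nuclear RNAs are modified, were lower in 10 of 16 and higher in 0. Box C/D small nucleolar RNAs, which guide methylation, were lower in 11 and higher in 5 of 112, with a median of -0.08. Against untransfected the numbers lower were 9, 20, 7 and 28, in the same order, and 0 were higher.

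These counts depended on single arrays more than those of the histones. Without miR-224 b the spliceosomal count fell to 3, the H/ACA count to 8, the Cajal count to 3 and the C/D count to 1. Without scrambled b they were 7, 15, 5 and 5, and without miR-224 a the C/D count was 27. The single higher H/ACA RNA was lost without any of the 4 miR-224 and scrambled arrays, and the 5 higher C/D RNAs became 2 without scrambled b, scrambled c or miR-224 a and 3 without miR-224 b. The array miR-224 b read lower than a in 18 of 22 spliceosomal RNAs, 49 of 61 H/ACA, 12 of 16 Cajal and 86 of 112 C/D RNAs, and over all genes in 7534 of 18377. The 2 miR-452 arrays also differed. Mean levels in miR-452 b and c were 8.02 and 8.42 for spliceosomal, 7.41 and 7.72 for H/ACA, 7.54 and 7.81 for Cajal and 6.69 and 6.83 for C/D RNAs. In miR-224 a they were 7.92, 7.36, 7.41 and 6.73. Array miR-452 b thus lay near miR-224 a, and miR-452 c near the scrambled arrays. RNA quality and recovery of short RNAs were not measured, and their part in the result was not tested.

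Among the 8 leading small RNAs, RNVU1-15, a variant U1 RNA, read 9.79 and 9.92 untransfected, 10.03 and 10.00 scrambled, and 9.08 and 8.31 with miR-224. Both miR-224 arrays were below all controls, as the choice of these 8 required, with b well under a. It fell by 1.32 ± 0.20 (adjusted p = 0.0013). SNORA60 read 8.44, 8.20, 8.38 and 8.18 in the controls and 7.33 and 7.37 with miR-224, a tight pair, and it fell by 0.93 ± 0.15. RNU4ATAC, the U4 RNA of the minor spliceosome that removes rare introns, fell by 1.00 ± 0.19, from 11.14 and 10.91 to 10.40 and 9.65. RNU5D-1, a U5 RNA, had the largest change of any gene tested at -2.15, but its arrays ran from 9.27 and 8.24 scrambled to 7.24 and 5.98, and the SE was 0.44; its call was lost without miR-224 b. SNORD104, SNORA21, SNORA41 and SNORA68 also lost their call without that array. Genes for U1 and U4 RNA have near-identical copies, so single members cannot be separated with certainty.

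**Figure D4:**
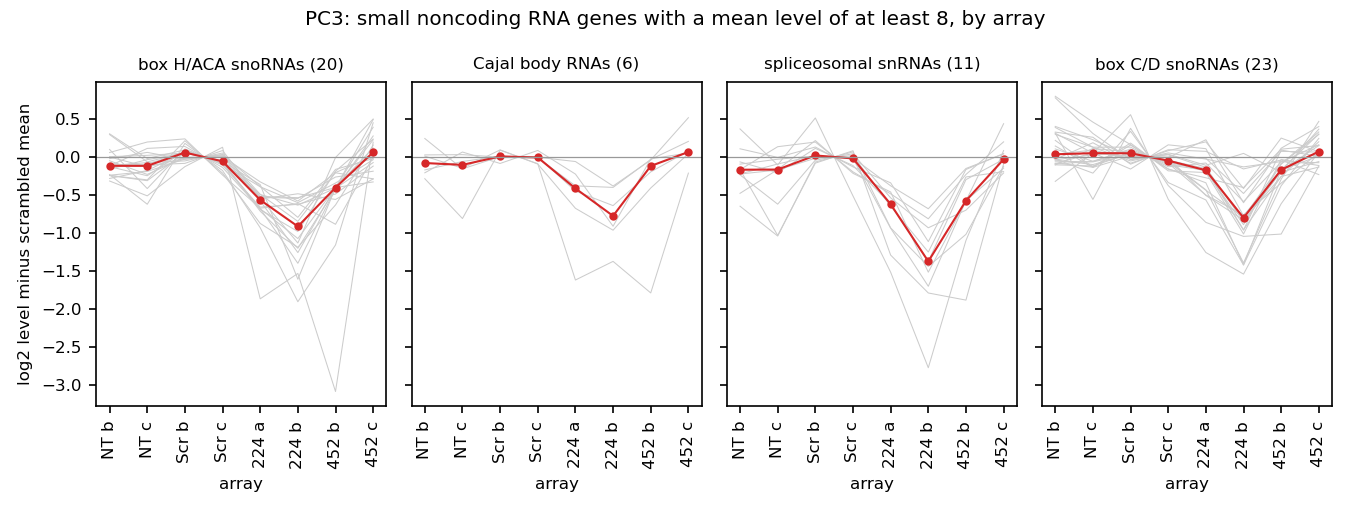
Log2 level minus the scrambled mean in each of the 8 PC3 arrays, for small noncoding RNAs with a mean level of at least 8 (a limit chosen after the values were seen), in 4 panels: 20 H/ACA, 6 Cajal body, 11 spliceosomal and 23 C/D RNAs. Grey lines are single RNAs and the red line is their median per array, which is lowest in miR-224 b in every panel and also dips in miR-452 b.

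Of 40 genes of origin licensing and the replisome, 11 were lower and 2 higher than scrambled, with a median of -0.08, and 28 were lower and 0 higher than untransfected, with a median of -0.41. The scrambled arrays were themselves lower than untransfected in 25 of the 40, so part of the distance from untransfected was also present with the scrambled mimic. MCM2, of the replicative helicase, read 9.08 and 9.23 untransfected, 9.02 and 9.01 scrambled, 8.35 and 8.46 with miR-224, and 9.08 and 9.03 with miR-452. Only the miR-224 arrays were low, and it fell by 0.61 ± 0.08 (adjusted p = 0.00073). MCM5 fell by 0.55, the polymerase clamp PCNA by 0.50 and the primase subunit PRIM1 by 0.54. RFC1, the large subunit of the clamp loader, went the other way by 0.80, a call lost without miR-224 b. The count of 11 was 6 without scrambled b, 7 without miR-224 a and 6 without miR-224 b, and of the 2 higher genes 1 was left without scrambled c and 0 without miR-224 b.

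Enzymes that make deoxynucleotides and purines gave 7 lower and 2 higher of 20, with a median of -0.18, and 16 lower and 0 higher against untransfected. RRM2, the small subunit of ribonucleotide reductase, read 9.83 and 9.73 untransfected, 9.43 and 9.46 scrambled, 8.51 and 8.54 with miR-224, and 9.26 and 9.31 with miR-452. The miR-224 arrays stood beneath all 6 others; it fell by 0.92 ± 0.08 (adjusted p = 4.7e-05). TYMS, thymidylate synthase, fell by 0.65, IMPDH2, which makes guanine nucleotides, by 0.67, the thymidine kinase TK1 by 0.47 and PAICS of purine synthesis fell by 0.45. The higher count of 2 became 0 without scrambled c or miR-224 b, and 1 without scrambled b or either untransfected array.

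Cyclins, cyclin-dependent kinases and E2F factors were lower in 6 and higher in 2 of 19, and lower in 7 and higher in 0 against untransfected. CDK4, the G1 kinase, fell by 0.60 ± 0.09, from 11.55 and 11.43 to 10.95 and 10.83, and RB1, the repressor it inactivates, was 0.52 above scrambled and 0.18 above untransfected, the second not called. Without scrambled b or miR-224 b 2 were lower, and without miR-224 a 3. Without scrambled c or miR-224 b 1 was higher. Mitotic genes (kinetochore, spindle and mitotic kinases) differed mainly between the controls: 5 of 40 were lower and 3 higher than scrambled, 28 were lower and 0 higher than untransfected, and the scrambled arrays were lower than untransfected in 32. CDC20, which activates the anaphase-promoting complex, fell by 0.67, the midbody kinesin KIF23 by 0.59 and the checkpoint protein MAD2L1 by 0.61. Without miR-224 b 3 mitotic genes were lower and 0 higher, and without scrambled c 1 was higher.

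**Figure D5:**
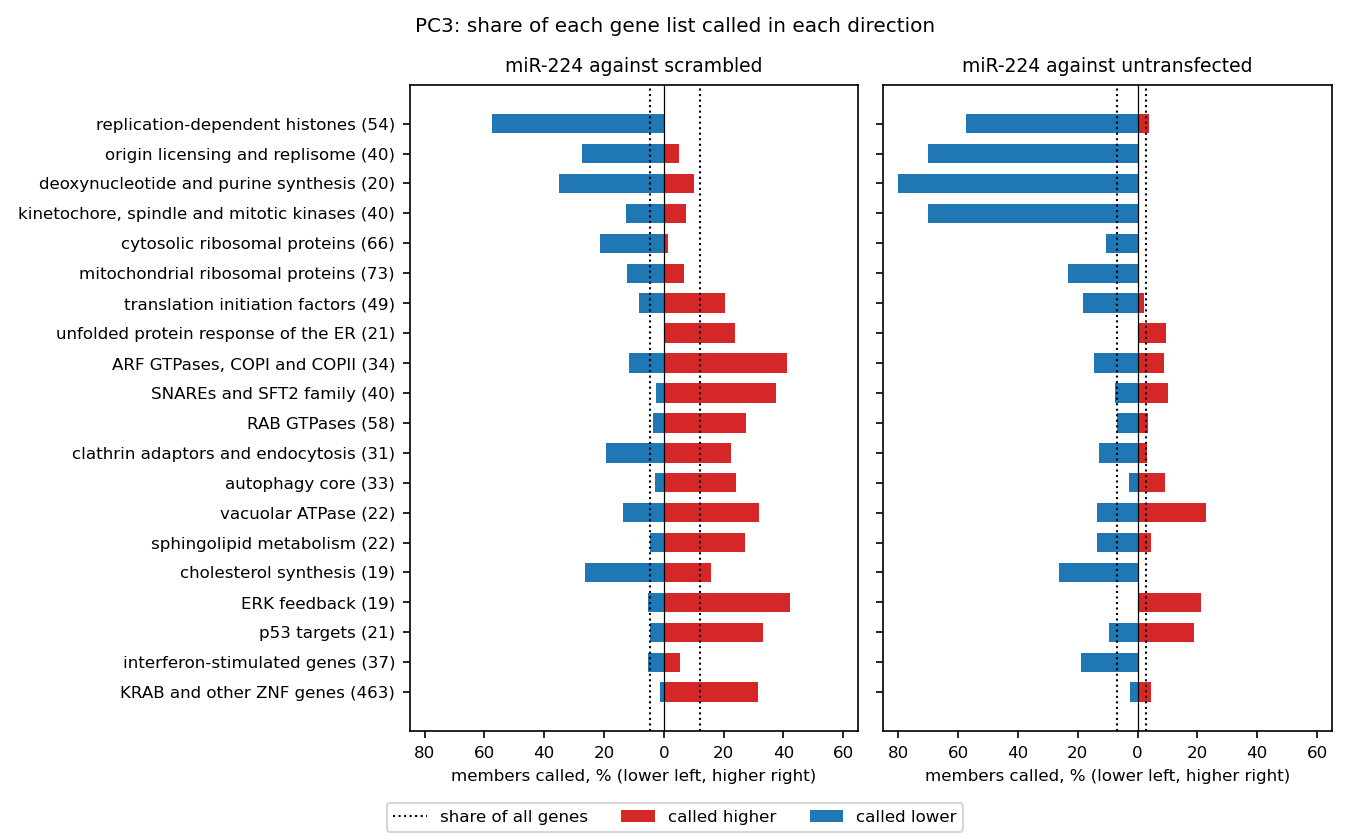
Share of each gene list called higher (right) and lower (left) with miR-224 in PC3, against scrambled and against untransfected arrays. The histone list has the longest bar to the lower side against scrambled. Against untransfected the deoxynucleotide, replisome and mitotic lists have longer lower bars than the histones. Membrane traffic and ZNF lists have long bars to the higher side against scrambled and short ones against untransfected.

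Genes that earlier studies have reported as direct targets of miR-224 gave 7 lower and 3 higher of 29 against scrambled, and 9 lower and 0 higher against untransfected. The list was drawn from general knowledge and is not complete. API5, an inhibitor of apoptosis, read 10.50 and 10.20 untransfected, 10.27 and 10.20 scrambled, 9.40 and 9.30 with miR-224, and 10.12 and 10.26 with miR-452. The miR-224 pair alone was low, by 0.88 ± 0.10 against scrambled. TPD52, a prostate-amplified vesicle protein, fell by 0.65, the methyl-CpG binder MBD2 by 0.69, SMAD4 of the TGF-beta pathway by 0.49, AP2M1, the clathrin adaptor subunit that reads cargo signals, by 0.50, and the ephrin EFNA3 by 0.56. DPYSL2 was the other. The 3 higher genes, MTOR (0.33), CAMKK2 (0.33) and PHLPP2 (0.27), were not called against untransfected, and none was called without scrambled c or without miR-224 b. Without either untransfected or either miR-452 array 1 of the 3 was called. The other 19, among them CXCR4, CDC42, FOXO1 and HOXD10, were not called, with changes from -0.20 (CXCR4) to 0.18 (CDC42). CXCR4, at 5.57 with miR-224, lay near the low end of the scale. RASSF8 and PAK2 were lower than untransfected, by 0.57 and 0.46, but not than scrambled.

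No gene of the host locus was called: GABRE, GABRA3 and GABRQ changed by -0.10, -0.02 and -0.08 against scrambled, at levels of 5.61 to 6.01 in the 8 arrays.

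Of 14 genes whose proteins process and carry microRNAs, 4 were higher and 1 lower than scrambled, and 1 higher and 2 lower than untransfected. Beside DICER1, the Argonaute genes AGO2, AGO3 and AGO4 were higher by 0.55, 0.51 and 0.55. AGO2, the Argonaute that can cut RNA, read 9.60 and 9.53 scrambled, 10.14 and 10.09 with miR-224, 9.55 and 9.41 with miR-452, and 10.16 and 9.97 untransfected. The scrambled and miR-452 arrays were low and the miR-224 arrays level with untransfected (a difference of 0.05). AGO1 changed by -0.24 and was not called. XPO5, which exports microRNA precursors from the nucleus, read 9.77, 9.60, 9.57 and 9.48 in the controls and 9.10 and 9.07 with miR-224, and it fell by 0.44 ± 0.08. Double-stranded RNA can induce interferon genes, and 37 such genes served as a check: 2 were higher and 2 lower than scrambled, 0 higher and 7 lower than untransfected, and 24 were lower with miR-224 than with miR-452. IFI44L read 8.85 and 8.98 scrambled, 8.13 and 8.08 with miR-224, and 10.46 and 10.22 with miR-452. The miR-224 arrays were the lowest and the miR-452 arrays the highest of the 8. Without scrambled c or miR-224 b 1 gene was higher, without either miR-452 array 4 were, and without scrambled b or miR-224 a 1 was lower.

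Lists of membrane traffic held more genes called higher than scrambled than higher than untransfected. SNARE proteins, which drive membrane fusion, and the SFT2 family gave 15 higher and 1 lower of 40 against scrambled, and 4 higher and 3 lower against untransfected. ARF GTPases and the COPI and COPII coats of vesicles between endoplasmic reticulum and Golgi gave 14 and 4 of 34, and 3 and 5. RAB GTPases, the address labels of vesicles, gave 16 and 2 of 58, and 2 and 4. Against the miR-452 arrays, 13 SNARE, 13 ARF and coat and 12 RAB genes were higher with miR-224, and 5, 4 and 1 lower. Over all genes those shares were 12.5% and 5.99%. The medians of these lists against scrambled were -0.0045, -0.043 and -0.0028 with miR-452, and 0.17, 0.23 and 0.07 with miR-224. The higher counts were 7, 7 and 4 without scrambled c, the same 7, 7 and 4 without miR-224 b, and 8 for the RAB genes without miR-224 a. The lower ARF and coat count was 2 without scrambled c or miR-224 b, the lower RAB count 1 without scrambled b or either miR-224 array, and the single lower SNARE gene was lost without scrambled b or miR-224 b and joined by another without scrambled c. Clathrin adaptors and endocytosis genes were divided, with 7 higher and 6 lower of 31, and 1 and 4 against untransfected. Without miR-224 b they were 3 and 2 against scrambled, and without scrambled b 3 were lower.

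RAB18, a GTPase of lipid droplets and the endoplasmic reticulum, read 8.40 and 8.44 scrambled, 9.35 and 8.97 untransfected, and 9.63 and 10.02 with miR-224. It was above both controls, by 1.40 ± 0.14 and 0.66. RAB21, of early endosomes, was 0.96 above scrambled and 0.36 above untransfected, the second not called. GOSR1, a Golgi SNARE, rose by 0.98 and 0.46, and SNAP23, of the plasma membrane, by 0.59 and 0.36. SAR1A and SAR1B, which start COPII coats, were 0.69 and 0.70 above scrambled and 0.23 and 0.32 above untransfected, the last 2 not called. Against this direction stood TMED10, a cargo receptor of the early secretory pathway. It read 11.36, 11.29, 11.37 and 11.35 in the controls and 10.43 and 10.37 with miR-224, and it fell by 0.96 ± 0.07 with no overlap. RAB1B fell by 0.48.

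The vacuolar ATPase, the proton pump of lysosomes, had 7 higher and 3 lower of 22 against scrambled and 5 and 3 against untransfected. ATP6V1B2 rose by 0.57 and 0.49 against the 2 controls and ATP6V1A by 0.60 and 0.50, while the membrane subunits ATP6V0E1 and ATP6V0E2 fell by 0.48 and 0.65. ATP6V1B2 read 9.92 and 9.73 scrambled, 10.35 and 10.43 with miR-224, and 9.34 and 9.22 with miR-452. The mimics lay on opposite sides of the scrambled arrays. Autophagy genes gave 8 higher and 1 lower of 33, and 3 and 1 against untransfected. ATG14, of the kinase complex that starts autophagosomes, rose by 0.55 and 0.42, and BECN1 of the same complex was 0.82 above scrambled and 0.42 above untransfected, the second not called. ULK1, the kinase that begins autophagy, was 0.50 below scrambled. Without scrambled c or miR-224 b the higher counts were 4 for the ATPase and 3 for autophagy.

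Genes of the unfolded protein response of the endoplasmic reticulum were higher in 5 and lower in 0 of 21, and in 2 and 0 against untransfected. EDEM1, which sends misfolded glycoproteins to degradation, was 0.52 above scrambled and DNAJC3, a brake on the kinase PERK, 0.73. The chaperone HSPA5 read 11.45 and 11.42 scrambled and 11.74 and 11.92 with miR-224, a rise of 0.40. Without scrambled c or without miR-224 b 2 of the 5 were called, and HSPA5 was not among them. In translation, initiation factors gave 10 higher and 4 lower of 49, and against untransfected 1 and 9. EIF2S3, the gamma subunit of eIF2, read 9.85 and 9.85 scrambled, 10.84 and 10.76 untransfected, and 11.02 and 11.22 with miR-224. The scrambled arrays were the low ones, by 1.28 ± 0.10; a near copy of this gene exists. EIF4EBP2, a repressor of cap-dependent translation, rose against both controls by 0.47 and 0.57. Higher factors numbered 4 without scrambled c or miR-224 b, and lower ones 1 without scrambled b, scrambled c or miR-224 a and 0 without miR-224 b.

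Cytosolic ribosomal protein genes were lower in 14 and higher in 1 of 66, with a median of -0.18, and in 7 and 0 against untransfected. RPS16 read 10.23 and 10.25 scrambled, 10.05 and 10.17 untransfected, and 9.60 and 9.56 with miR-224, and fell by 0.66 ± 0.08. The count depended on single arrays: without scrambled b 7 were lower, without scrambled c 3 and without miR-224 b 1. The single higher gene was lost without scrambled b or either miR-224 array. Ribosomal protein genes have many processed copies that can share probes. Mitochondrial ribosomal proteins gave 9 lower and 5 higher of 73, and 17 lower and 0 higher against untransfected. MRPL45 fell by 0.60 and MRPL11 by 0.43. Without scrambled b 5 were lower, without miR-224 b 4 were lower and 1 higher, and without scrambled c 2 were higher.

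In energy metabolism the counts were small. Beside NDUFA8, the complex I subunit NDUFB2 fell by 0.48 and NDUFS1 was 0.59 above scrambled, and 4 of 34 subunits were lower and 1 higher, with 3 and 0 against untransfected; 2 were lower without scrambled b or miR-224 b, and 2 higher without either untransfected array. Glycolytic enzymes and their regulators were lower in 6 of 22 and higher in 0, and lower in 5 against untransfected. PDK1, which turns pyruvate away from mitochondria, read 9.90, 9.82, 9.90 and 9.92 in the controls and 9.35 and 9.24 with miR-224, and it fell by 0.62 ± 0.08. PFKFB4 fell by 0.67 and ALDOC by 0.60. Among genes of glutathione and cysteine, 6 were higher and 6 lower of 31, and 1 and 3 against untransfected. Without miR-224 b 3 were higher and 3 lower than scrambled. SLC7A11, which imports cystine, rose by 0.83 against scrambled and 0.49 against untransfected, from 9.16 and 9.16 to 10.03 and 9.95. CTH, which makes cysteine from cystathionine, fell by 1.21 and 0.42, and read 8.37 and 8.25 scrambled, 7.64 and 7.39 untransfected, and 7.14 and 7.06 with miR-224. MTRR, which keeps methionine synthase active, fell by 0.85 and 1.01.

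In lipid metabolism, cholesterol synthesis genes were lower in 5 and higher in 3 of 19, and lower in 5 and higher in 0 against untransfected. INSIG1, the sterol sensor that holds SREBP back, fell by 0.64 and the squalene epoxidase SQLE by 0.47, with no overlap between groups in either gene. Without miR-224 b 3 were lower and 0 higher, without scrambled c 0 were higher, and without scrambled b or miR-224 a 1 was. Sphingolipid genes were higher in 6 and lower in 1 of 22, and 1 and 3 against untransfected. GBA2 was described above. SPTLC2, of the first step of sphingolipid synthesis, was 0.60 above scrambled and 0.22 above untransfected, the second not called. SGPL1, the lyase of the last step, fell by 0.65 and 0.84. It read 9.98 and 9.79 scrambled and 9.14 and 9.33 with miR-224. Without scrambled c or miR-224 b 3 sphingolipid genes were higher.

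Signalling genes downstream of ERK were called higher in part. Of 19 feedback and transcription genes of the ERK pathway, 8 were higher and 1 lower than scrambled, and 4 higher and 0 lower than untransfected, with a median of 0.24 against scrambled. SPRY4, an inhibitor made in response to ERK, read 10.84 and 10.79 untransfected, 10.36 and 10.35 scrambled, 11.47 and 11.34 with miR-224, and 10.34 and 10.16 with miR-452. The miR-224 arrays were the highest of the 8, by 1.05 ± 0.09 over scrambled (adjusted p = 4.6e-05) and 0.59 over untransfected. DUSP6, the ERK phosphatase, rose by 0.86 and 0.45, and the factor ETV5 by 0.99 and 0.33. SPRED1 and DUSP4 were 0.72 and 0.44 above scrambled and not called against untransfected. The count of 8 stayed within 1.5 times with each array left out, and the single lower gene was lost without scrambled b, miR-224 a or miR-224 b.

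Targets of YAP and TEAD were higher in 7 and lower in 2 of 25, and in 1 and 2 against untransfected. CCN2, a matricellular growth factor, rose by 1.08 and 0.47, and IGFBP3, which binds insulin-like growth factors, fell by 0.64 and 0.66. THBS1, thrombospondin, read 9.88 and 9.69 scrambled, 9.90 and 9.79 untransfected, and 8.97 and 8.99 with miR-224, and it fell by 0.81 ± 0.09. CCN2 and THBS1 are both listed as targets of this pathway and moved in opposite directions. Without scrambled c, miR-224 a or miR-224 b 4 were higher. Of 28 genes of TGF-beta and SMAD signalling, 5 were lower and 5 higher than scrambled, and 6 lower and 2 higher than untransfected. The lower ones included SMAD4, ID1 and ID3, and ID3 fell by 0.88, from 7.56 and 7.39 to 6.50 and 6.69. SKIL and SMURF1, which restrain the pathway, were 0.50 and 0.48 above scrambled and not called against untransfected. Without scrambled c 3 were higher and without miR-224 b 2.

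Among genes of cell death, targets of p53 were higher in 7 and lower in 1 of 21, and in 4 and 2 against untransfected; PC3 is known to lack functional p53. The count of 7 stayed within 1.5 times with each array left out, and the lower gene was lost without either miR-224 array. PMAIP1, the BH3-only protein NOXA, read 7.82 and 7.72 scrambled, 8.50 and 8.57 untransfected, and 9.18 and 9.05 with miR-224, so it stood 1.34 and 0.58 above the controls. MDM2 rose by 0.68 and 0.31 and the death receptor FAS by 0.48 and 0.37. In the BCL2 family 3 of 17 were higher (17.6%) and 1 lower (5.88%), and 2 and 1 against untransfected, with 1 and 0 left against scrambled without miR-224 b and 1 higher without scrambled c. Caspases, death receptors and their inhibitors gave 4 higher (17.4%) and 2 lower (8.7%) of 23, and 2 and 4 against untransfected. Over all genes the shares against scrambled were 12.1% and 4.65%. TNFRSF10B rose and the inhibitor API5 fell, as given above. Without scrambled c or miR-224 b 2 were higher. One lower gene was left without scrambled b, scrambled c, either miR-224 array or either miR-452 array.

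The CTLH complex, a ubiquitin ligase known in yeast for removing gluconeogenic enzymes, was higher in 5 of 11 and lower in 0, and in 2 and 2 against untransfected. RMND5A, its catalytic RING subunit, read 8.10 and 7.88 scrambled, 8.81 and 8.41 untransfected, and 9.09 and 9.54 with miR-224. It rose by 1.33 ± 0.15 and 0.71. GID8 and ARMC8 were 0.40 and 0.48 above scrambled and -0.06 and 0.13 from untransfected, calls lost without miR-224 b and, for ARMC8, without scrambled c. The substrate receptor GID4 and the subunits MAEA, RANBP9, MKLN1, WDR26 and YPEL5 were not called against scrambled, from -0.21 (RANBP9) to 0.21 (MKLN1), though GID4 and WDR26 lay lower than untransfected and YPEL5 higher. The number higher was 2 without scrambled c, 3 without miR-224 a and 1 without miR-224 b. Among the TAM receptors and ligands AXL was the 1 gene of 5 called against scrambled; TYRO3, MERTK, GAS6 and PROS1 changed by 0.02 (GAS6) to 0.24 (PROS1), and PROS1 alone was called against untransfected, at 0.37 (adjusted p = 0.0499).

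At the cell surface, 9 of 72 integrin, laminin and collagen genes were higher (12.5%, near the 12.1% of all genes) and 2 lower (2.78% against 4.65%), and 5 and 2 against untransfected. ITGA5 read 9.92 and 9.64 scrambled, 9.58 and 9.75 untransfected, and 10.55 and 10.57 with miR-224, but also 10.54 and 10.26 with miR-452. ITGA3, a laminin receptor subunit, read 11.69, 11.79, 11.98 and 11.82 in the controls and 11.19 and 11.08 with miR-224, and it fell by 0.76 ± 0.09. The fibronectin receptor subunit was thus higher and the laminin receptor subunit lower in the same arrays. ITGA2, of a collagen receptor, rose by 0.49 and 0.57. Without miR-224 b 2 were higher and 1 lower, and 1 was lower without scrambled c or miR-224 a. Keratins and epithelial junction genes gave 4 higher (15.4%) and 3 lower (11.5%) of 26, and 1 and 3 against untransfected. Without scrambled c or miR-224 b 1 was higher than scrambled. DSG2 read 9.53 and 9.44 scrambled, 8.54 and 8.56 with miR-224, and 9.92 and 9.69 with miR-452. KRT7 fell by 0.64, the tight junction protein CLDN4 rose by 0.48, and both changes held against untransfected.

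Among 32 genes of axon guidance and the DPYSL family, 4 were lower (12.5%) and 2 higher (6.25%) than scrambled. Against untransfected they were 3 and 1. Over all genes 4.65% were lower and 12.1% higher than scrambled. The secreted semaphorins SEMA3A and SEMA3C changed by -0.56 and -0.63 against scrambled, and SEMA3C by -0.57 against untransfected. Without scrambled c 1 was higher. Calcium-binding EF-hand genes, chosen because of CALB1, gave 5 lower (20%) and 3 higher (12%) of 25, and 4 and 3 against untransfected. Their higher share was thus near that of all genes. CALU of the secretory pathway rose by 0.51 and 0.42. HPCAL1 was 0.47 below scrambled and 0.18 below untransfected, the second not called. Without miR-224 b 2 were lower and 1 higher. Of 19 genes of DNA methylation and polycomb, 4 were higher (21.1%) and 1 lower (5.26%) than scrambled, and 2 and 4 against untransfected. JARID2, a cofactor of polycomb complex PRC2, rose by 0.66 and 0.49, and TET1, which oxidises methylcytosine, by 0.56 and 0.43; without miR-224 b 2 were higher.

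Zinc finger genes of the KRAB and other ZNF families were the largest list. Of 463, 146 were higher than scrambled and 6 lower, with a median of 0.15, yet against untransfected 20 were higher and 12 lower, with a median of 0.06, and the scrambled arrays were lower than untransfected in 80. The number higher than scrambled was 79 without scrambled c and 59 without miR-224 b. The number lower was 3 without scrambled b or miR-224 a and 2 without miR-224 b. ZNF652, a repressor expressed in prostate, read 9.42 and 9.33 untransfected, 9.32 and 9.21 scrambled, and 10.14 and 10.22 with miR-224, well clear of both controls. ZNF780A read 6.46 and 6.50 scrambled, 7.27 and 7.06 untransfected, and 7.28 and 7.30 with miR-224, where scrambled was the lowest of these groups. The mean of the 463 genes was 7.46 and 7.38 untransfected, 7.31 and 7.25 scrambled, and 7.45 and 7.49 with miR-224. With miR-452 it was 7.31 and 7.27, level with scrambled. Against miR-452, 132 were higher with miR-224 and 6 lower (12.5% and 5.99% over all genes). ZNF841 and ZNF808 rose against both controls, by 0.72 and 0.53 and by 0.79 and 0.49, and ZNF395 fell by 0.68 and 0.53.

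Set against the miR-452 mimic, 2299 genes were higher with miR-224 (12.5%) and 1101 lower (5.99%). Of the 20 largest falls below both controls, 3 were also called lower than scrambled with miR-452 and 17 were not called. The difference between the mimics was called in all 20. These genes were picked for low values in the same miR-224 arrays, so this count cannot test a difference between mimics. PRDX3 was 1.15 lower than scrambled with miR-224 and 0.00 with miR-452, and the difference between mimics was called (adjusted p = 1.5e-05). CLTB, CYRIB, TMEM14C and ID1, of that set, and API5 were likewise not called with miR-452 and called between the mimics. Of the 20 largest rises, 8 were also called higher with miR-452, and the difference between the mimics was called in 17, with the same limit. Some genes were called with both mimics: DPYSL2 by -1.45 and -0.79, CALB1 by -1.62 and -0.69, DICER1 by 1.12 and 0.96, ENTPD7 by 1.36 and 0.88, and AXL by 1.57 and 1.32. For DICER1 and AXL the difference between the mimics was not called (adjusted p = 0.28 and 0.066). The mimics share the scrambled arrays, so a low scrambled level moves both changes alike.

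In DU145, a line from a brain metastasis of prostate cancer given the same mimics, the miR-224 change could be set beside that of PC3, with only 1 scrambled array there, so that array is assumed to vary like the other groups and the DU145 changes have no replicate check on the control. The difference between lines was called in 212 genes (1.15%). Most genes named in this paragraph were picked for large changes in the same PC3 arrays or for this difference. Differences called among them may therefore be overstated. C12orf57 changed by -1.42 in PC3 and -1.32 in DU145, PRDX3 by -1.15 and -1.12, CLTB by -1.10 and -1.15, NDUFA8 by -0.97 and -1.42, and API5 by -0.88 and -1.22. None of these differences was called. The difference was called in 6 of the 54 histone genes, among them 3 named above. H2BC3 changed by -1.24 in PC3 and 0.03 in DU145, H3C7 by -0.93 and 0.05, and H3C2 by -0.95 and -0.04. The median change of the 54 was -0.10 in DU145. DUSP6 rose by 0.86 in PC3 and fell by 0.66 in DU145, THBS1 fell by 0.81 and rose by 0.62, and SPARC changed by 1.21 and 0.05. AXL and RNF157 were higher than scrambled in DU145 as well, by 1.37 and 1.23, and near untransfected there, by 0.16 and 0.01.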

How the data were processed

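The deposited series matrix holds log2 expression values that the authors made with RMA16 in GeneSpring GX 11.0, the PC3 and DU145 arrays being normalized separately, per the series' design text. What RMA16 adds to plain RMA is not given in the sources used here. Arrays have no read depth, so their number, 2 in each PC3 group, limits the precision. Of 28869 features, 1752 carried several gene symbols and 7807 none and were left aside; the others were averaged per symbol to 18377 genes.

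A model of 4 group means over the 8 PC3 arrays was fitted with limma 3.58.1 in R 4.3.3, with moderated two-sided tests, 4 residual degrees of freedom and Benjamini-Hochberg adjustment over all genes, and genes were called at an adjusted p under 0.05. DU145 entered a second fit of all 15 arrays, where 1 DU145 scrambled array is used. The fit was also run on simulated data with independent noise for each gene and no deviation shared across an array. That check cannot show how calls behave when a whole array deviates. The array letters could pair groups, but deviations of arrays with letter b correlated from -0.147 to 0.273 between groups. The main fit used no block.

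Genes named are the 20 largest rises and falls by the smaller of the changes against both controls, the 8 leading small RNAs, up to 6 members of each list with the smallest p, the 8 largest changes each way within 0.2 of untransfected, all members of 4 short lists, and those that differed most between lines or mimics. H4C8, H2BC12 and those giving the limit at 0.2 were named after their values were seen. The lists and comparisons were chosen with earlier results of these data known. Alternatives covered the control group, the arrays in the fit, a filter on low values, normalization, the log offset, moderation, averaging of features, a replicate block and each array left out. Seed matches in transcripts were not analysed here.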

Additional observations from a re-analysis of the deposited data

Results flagged for a closer look

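These values differed between the cell lines by a test of the difference itself, called in limma at an adjusted p under 0.05 over all genes; each is the log2 change with miR-224 against scrambled in PC3 minus that in DU145, where 1 scrambled array stands for the control and is assumed to vary like the other groups. Among genes that rose in PC3 the differences were 1.52 for DUSP6, 1.18 for FRMD4B, 1.16 for SPARC, 1.11 for SERPIND1, 1.03 for CCN2, 0.99 for TCP11L2, 0.91 for SASH1, 0.89 for HPGD, 0.85 for KAT2B, 0.83 for GYG1, 0.75 for ENTPD7 and 0.67 for MPZL3. Among genes that fell in PC3 they were -1.58 for CALB1, -1.49 for CTH, -1.43 for THBS1, -0.86 for DPYSL2, -0.83 for RGS4, -0.77 for NUPR1, -0.75 for MAP7D2, -0.73 for ID1 and -0.72 for ANK3. The histone genes H2BC3, H3C7 and H3C2 differed by -1.27, -0.98 and -0.91. DUSP6 and THBS1 changed in opposite directions in the 2 lines, while ENTPD7 rose and DPYSL2 was lower in both. These genes were picked for large changes in the same PC3 arrays, or for a small p between lines or mimics. The sizes of their differences may therefore be overstated, and the list is no independent test of a difference between lines.

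Outside the genes with 1 symbol, 9559 features carried several symbols or none. Of these, 183 were called higher and 287 lower than scrambled with miR-224, and 21 and 79 were called in the same direction against both controls.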

How the results depend on the processing

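Against untransfected arrays, 521 genes were higher, and list counts were 28 lower for the replisome, 16 lower for deoxynucleotide synthesis, 9 lower for spliceosomal RNAs, and 3, 4 and 20 higher for ARF and coat, SNARE and ZNF genes. Against the mean of both controls they were 1436 genes higher, 21 replisome and 12 deoxynucleotide genes lower, and 93 ZNF genes higher. The replicate block treats arrays with the same letter as paired, which they may or may not be. Among PC3 arrays only miR-224 a has the letter a, so the block takes up that array entirely. The miR-224 group then rests on array b alone, and a shift in counts cannot be put down to pairing by the block. With it, 1253 genes were higher and 479 lower, and 6 replisome genes were lower. Higher were 8 ARF and coat, 9 SNARE and 81 ZNF genes. With trend and robust moderation 5 spliceosomal RNAs were lower. Leaving out 1 array at a time gave 831 to 2151 genes higher and 332 to 822 lower, 6 to 11 replisome genes, 8 to 31 H/ACA RNAs and 3 to 15 spliceosomal RNAs lower, and 7 to 14 ARF and coat, 7 to 14 SNARE and 59 to 146 ZNF genes higher. The histone count of 31 stayed within 1.5 times under every alternative run. The causes of these shifts were not tested. Changes of the other sign against untransfected were -0.0348 for RNF157, -0.0146 for SFT2D2, -0.03 for GYG1, 0.1498 for RGS4, -0.0042 for CAMKK2, -0.4629 for PAK2, -0.0648 for GID8, -0.2084 for RPS25, -0.0406 for AP1B1 and -0.2189 for SNORD50A. Of 276 genes checked singly under the alternatives, not all of them named here, 241 were called. Of these, 186 kept the call without each array in turn. The call was lost in 48 without miR-224 b, 24 without scrambled c, 15 without miR-224 a and 12 without scrambled b. Of the 241, 84 were not called against untransfected or had the other sign. With 2 arrays a group the precision is limited, and a gene not called may still differ.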

Other observations

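Several further gene groups held single members with clear changes against both controls. EPAS1, the hypoxia-inducible factor HIF-2 alpha, read 9.63 and 9.63 untransfected, 10.15 and 10.09 scrambled, and 9.31 and 9.34 with miR-224. The scrambled arrays were high and the miR-224 arrays lowest, at -0.80 against scrambled and -0.31 against untransfected, and of the 26 genes listed as other hypoxia genes, EPAS1 among them, 2 were lower and 0 higher than scrambled, and 1 and 0 than untransfected. LIF, a cytokine of the interleukin 6 family, read 7.48 and 7.64 scrambled and 8.36 and 8.39 with miR-224, and rose by 0.81 and 0.56 against the 2 controls. Of 13 genes of fatty acid synthesis, elongation and desaturation 3 were lower (23.1%, 4.65% over all genes) and 2 higher (15.4%, 12.1%) than scrambled, and 5 and 0 against untransfected. The 3 lower ones were lower against both controls: ELOVL1, an elongase, by -0.52 and -0.57, ACSL4, which activates arachidonic acid, by -0.45 and -0.68, and FADS1, a desaturase, by -0.41 and -0.48. Of the higher ones 1 was left without scrambled c or miR-224 a and 0 without miR-224 b.

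Among 26 matrix proteases and inhibitors 5 were higher and 4 lower than scrambled, and 2 and 5 than untransfected. The sheddases ADAM9 and ADAM10 lay on opposite sides: ADAM9 rose by 0.71 and 0.42, and ADAM10 changed by -0.48 and -0.73, a call against scrambled that was lost without miR-224 a. PLAT, the tissue plasminogen activator, read 11.02 and 10.90 scrambled, 11.55 and 11.52 untransfected, and 11.69 and 11.80 with miR-224, so it differed from scrambled by 0.79 and from untransfected by 0.21, the second not called. Of 33 proteasome subunits 4 were higher than scrambled, the same 12.1% as over all genes, and 4 lower, against 4.65% over all genes; against untransfected 0 were higher and 5 lower. PSMD11, of the lid, read 9.98 and 9.83 scrambled but 10.69 and 10.57 untransfected and 10.76 and 10.81 with miR-224, and the catalytic subunit PSMB5 changed by -0.63 and -0.67. Genes of homologous recombination and the Fanconi pathway were higher than scrambled in 3 of 22 and lower in 0. The higher share of 13.6% was near the 12.1% of all genes. Of the 22, 11 were lower than untransfected (50%, 6.85% over all genes). In 15 the scrambled arrays were lower than untransfected, and over all genes in 10.9%. The matrix protease counts were 2 higher without scrambled c or miR-224 b and 2 lower without either miR-224 array. The proteasome counts were 1 higher without scrambled c or miR-224 b, 2 lower without scrambled b and 1 lower without miR-224 b, and the recombination count 1 without scrambled b or miR-224 b. Of the hypoxia genes 1 was lower without scrambled b or miR-224 b.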
